A study of Mus musculus with 9 samples.

Results

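The genes described here encode RNA polymerase II and the factors that carry it through a gene: 44 listed mouse genes in 9 complexes or groups. Their rows were found by matching Ensembl identifiers to the listed symbols in GENCODE M21, and a gene was kept where its mean over the 9 libraries was at least 1 CPM (reads of the gene scaled to the total of gene reads in the library). Of the 44 genes, 43 passed, out of 12118 that passed among the 43629 genes of the table. The exception was Ell3, a paralogue of the elongation factor Ell, with 5, 2 and 2 reads in the DMSO libraries, 0, 1 and 3 after JQ1 and 2, 0 and 0 after RG6146. All 43 were among the 11002 genes with enough reads to be tested.

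Transcription by RNA polymerase II starts at the promoter, and at most mammalian genes the enzyme then pauses a short way downstream, held by the factors DSIF and NELF. The kinase P-TEFb, often delivered as part of the super elongation complex, phosphorylates DSIF, NELF and the long repetitive tail (CTD) of the largest polymerase subunit. NELF then leaves, and the PAF1 complex, SPT6 and histone chaperones travel with the polymerase through chromatin. BET bromodomain proteins, the targets of the compounds used here, bind acetylated histones.

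The cells were Eµ-Myc lymphoma cells of clone 4242, a mouse B-cell lymphoma line grown in vitro whose Myc transgene is driven by the immunoglobulin heavy chain enhancer. For 2 h they received the BET inhibitor JQ1 at 1 µM, the BET inhibitor RG6146 at 2.5 µM, or DMSO as vehicle. Each treatment had 3 libraries, numbered as replicates in the labels. All 9 libraries come from this 1 clone, so the tests measure the spread between its libraries and not between lymphomas. Whether the replicates were separate cultures or separate preparations of 1 culture could not be told. Both drug groups are compared with the same 3 DMSO libraries. The doses of the compounds differ, so a difference between compounds and a difference between doses cannot be told apart.

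The libraries were 3′ mRNA libraries with 3410161 to 5031717 gene reads each, and a tested gene of the set had between 19 and 2333 reads in a library. The 7 B-cell markers checked (among them Cd79a, Cd79b and Pax5) each averaged over 1 CPM. Their summed level was 585 to 644 CPM in DMSO, 283 to 293 after JQ1 and 314 to 344 after RG6146. Summed myeloid markers lay at 147 to 693, 55.5 to 246 and 78.2 to 111 CPM, with 7 of 8 over 1 CPM, and erythroid markers at 5.86 to 9.71, 3.53 to 19.2 and 3.90 to 8.87, with 4 of 7. Stromal and endothelial markers lay at 132 to 143, 98.4 to 101 and 104 to 111, with only Pecam1 and Vim over 1 CPM. T and NK cell markers summed to 7.92 to 11.7, 2.77 to 6.25 and 5.12 to 7.59 CPM, with only Cd2 and Nkg7 over 1 CPM and Ncr1 at 0 in every library. Mitochondrially encoded genes took 5.04 to 6.14%, 4.74 to 6.18% and 5.60 to 5.92% of reads. The part of these shifts in the results was not tested. In such bulk samples, fewer cells of a type and less RNA per cell cannot be told apart.

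The promoters of 6 genes on which the results turn are printed here. Polr2a, Paf1, Aff4 and Cdk13 rose after both compounds, and Polr2m and Aff1 fell after both. Each sequence runs 5′ to 3′ from 250 bases before to 50 bases after the start of the RefSeq gene model, on build GRCm38.p6. Capitals mark every match, on either strand, to the E-box (spelled CACGTG), the GC box (spelled GGGCGG), the CCAAT motif, the TATA-box motif spelled TATAAA, the ETS motif spelled CCGGAAG and the NRF1 motif. Matches to different motifs were allowed to overlap. For Polr2m and Aff1 RefSeq lists a second window, which is not printed. Both Aff1 windows lie inside the gene as annotated in GENCODE M21, which starts at position 103692374 on chromosome 5. Neither window covers that start. The windows are chr11:69758584-69758883 (minus strand), chr7:28392746-28393045 (plus), chr11:53350517-53350816 (plus), chr13:17805048-17805347 (minus), chr9:71485934-71486233 (minus) and chr5:103753912-103754211 (plus).
Polr2a: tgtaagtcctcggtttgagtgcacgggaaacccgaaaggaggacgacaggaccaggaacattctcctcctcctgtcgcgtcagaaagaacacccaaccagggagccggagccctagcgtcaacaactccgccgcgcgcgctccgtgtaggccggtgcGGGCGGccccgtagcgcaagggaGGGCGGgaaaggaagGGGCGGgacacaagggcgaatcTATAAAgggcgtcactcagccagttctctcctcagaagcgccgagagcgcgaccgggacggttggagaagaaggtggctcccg
Paf1: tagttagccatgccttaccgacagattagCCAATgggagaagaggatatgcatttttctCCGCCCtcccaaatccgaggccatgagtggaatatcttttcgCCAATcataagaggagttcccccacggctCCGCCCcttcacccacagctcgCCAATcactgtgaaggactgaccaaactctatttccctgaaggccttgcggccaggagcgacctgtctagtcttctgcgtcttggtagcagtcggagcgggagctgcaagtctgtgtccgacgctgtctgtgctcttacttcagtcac
Aff4: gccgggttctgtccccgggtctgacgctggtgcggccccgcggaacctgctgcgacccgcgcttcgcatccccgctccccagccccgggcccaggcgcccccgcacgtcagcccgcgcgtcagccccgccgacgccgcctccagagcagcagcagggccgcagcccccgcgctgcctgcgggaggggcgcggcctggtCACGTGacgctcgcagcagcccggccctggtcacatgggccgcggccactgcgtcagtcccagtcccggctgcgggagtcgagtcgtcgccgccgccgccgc
Cdk13: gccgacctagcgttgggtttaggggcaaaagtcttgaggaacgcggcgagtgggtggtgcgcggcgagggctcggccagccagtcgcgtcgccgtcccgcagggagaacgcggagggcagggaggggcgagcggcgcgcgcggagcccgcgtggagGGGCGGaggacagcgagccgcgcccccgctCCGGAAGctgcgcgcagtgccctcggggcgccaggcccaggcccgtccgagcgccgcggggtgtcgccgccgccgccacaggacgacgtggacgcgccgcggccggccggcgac
Polr2m: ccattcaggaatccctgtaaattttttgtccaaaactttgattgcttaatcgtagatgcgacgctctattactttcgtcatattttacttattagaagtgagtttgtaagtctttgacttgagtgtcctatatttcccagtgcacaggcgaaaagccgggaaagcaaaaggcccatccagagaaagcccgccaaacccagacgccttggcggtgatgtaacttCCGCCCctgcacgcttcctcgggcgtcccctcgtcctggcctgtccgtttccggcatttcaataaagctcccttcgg
Aff1: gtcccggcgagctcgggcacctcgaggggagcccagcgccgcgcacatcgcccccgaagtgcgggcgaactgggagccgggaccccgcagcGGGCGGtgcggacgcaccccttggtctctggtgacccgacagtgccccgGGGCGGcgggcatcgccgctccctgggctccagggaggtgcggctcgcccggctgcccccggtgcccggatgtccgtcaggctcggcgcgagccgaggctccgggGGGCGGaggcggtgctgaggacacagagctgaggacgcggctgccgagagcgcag

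The Polr2a window holds TATAAA beginning 33 bases before the start, with GC boxes beginning 93, 70 and 55 bases before it. In the Aff4 window the only match is an E-box, beginning 52 bases before the start. The Paf1 window holds 3 CCAAT and 2 GC-box matches, that of Cdk13 a GC box and an ETS motif, that of Polr2m a single GC box, and that of Aff1 3 GC boxes.

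RefSeq windows were found for 35 of the 44 genes, 40 windows in all. The CpG count per window had a median of 26 in the set, against 13 over the 21263 windows of protein-coding genes and 7 over all 32851 windows. The GC box was present in 31 of the 40 windows (77.5%), against 46.2% of protein-coding and 35.7% of all windows. The ETS motif was present in 11 (27.5%, against 11.6% and 8.86%). TATAAA was found in 3 windows (7.5%, against 12.6% and 13.6%), the E-box in 4 (10%, against 7.84% and 7.15%), CCAAT in 13 (32.5%, against 38.2% and 37.4%) and the NRF1 motif in 2 (5%, against 1.33% and 0.971%). Among the 8 windows of genes that rose after both compounds, the GC box was in 7, the ETS motif in 2, and the E-box, the CCAAT box, the TATA box and the NRF1 motif in 1 each. The comparison windows were not limited to expressed genes, whereas 43 of the 44 listed genes averaged at least 1 CPM. The part of this in the differences was not tested. The matches are descriptions of the letters and say nothing of which factor is bound.

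After 2 h, the set as a whole did not move in 1 direction: a few genes rose or fell strongly and most did not pass the test. After JQ1, 10 of the 43 genes rose and 5 fell at an adjusted p below 0.05, and after RG6146 11 rose and 4 fell. Genes called in either direction made up 34.9% of the set in each comparison, against 28.9% of all tested genes after JQ1 and 26.0% after RG6146, so the overall share lay near the background. By direction, 23.3% of the set rose after JQ1 (13.6% of all genes) and 11.6% fell (15.4%). After RG6146, 25.6% rose (12.5% of all genes) and 9.30% fell (13.5%). The median log2 fold change of the set was 0.096 after JQ1 and 0.078 after RG6146, beside medians of 0.0047 and 0.0086 over all genes. The libraries of drug and DMSO did not overlap for 27 genes after JQ1 (62.8%, against 42.6% of all genes) and for 24 after RG6146 (55.8%, against 40.9%). The set was measured more tightly than the average gene, with a median 95% interval of ± 0.21 log2 units after JQ1, against ± 0.35 over all genes.

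The balance of directions depends on the scaling. The tests scale libraries by TMM, which sets the bulk of genes as unchanged. With plain total counts, the median of all genes shifted to −0.13 after JQ1 and −0.099 after RG6146, and the share of higher genes among all calls went from 47.0% to 27.3% and from 48.0% to 29.9%. The set then had 9 genes higher and 10 lower after JQ1, and 8 higher and 8 lower after RG6146, with medians of −0.037 and −0.030. Scaling to the ERCC spike-ins, synthetic RNAs added to each sample, left 5 calls after JQ1 and 4 after RG6146, while the medians of the set were 0.097 and 0.11. The ERCC share of reads differed by replicate number, and ERCC scaling with the replicate number as a block gave 14 calls after JQ1 (9 higher, 5 lower) and 12 after RG6146 (9 higher, 3 lower). Polr2a, Paf1, Ctr9 and Polr2m kept their call in both comparisons under each of the 18 alternative settings, as did Polr2i after JQ1. All other calls of the set were lost with ERCC scaling without the block, among them those of Polr2b, Polr2l, Rtf1 and Cdk13. No gene of the set that was called in any setting changed sign against its main value.

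**Figure D1:**
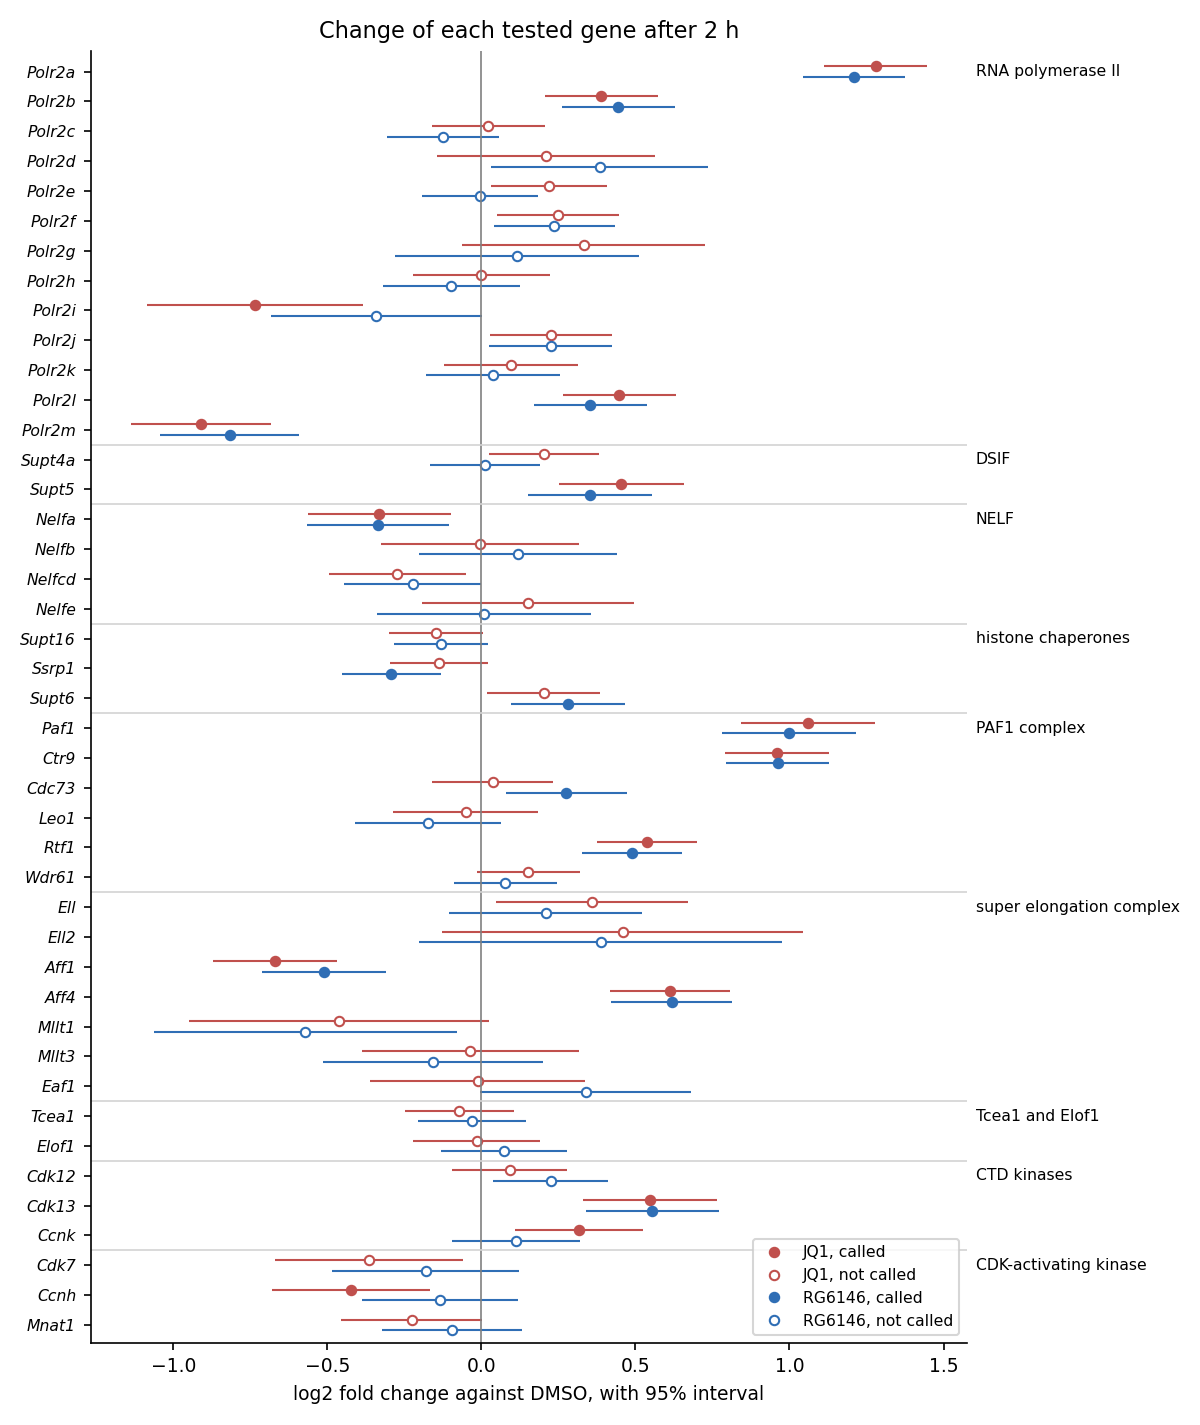
Log2 fold change against DMSO (horizontal axis) of the 43 tested genes, in rows by complex, after JQ1 and after RG6146; points are estimates, bars are 95% intervals, and filled points mark genes called at an adjusted p below 0.05. Polr2a, Paf1 and Ctr9 lie farthest to the right and Polr2m farthest to the left, and most other genes lie near 0.

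The polymerase itself changed unevenly. Of its 12 subunits and the associated protein Polr2m, 3 rose and 2 fell after JQ1, and 3 rose and 1 fell after RG6146. Called genes were 38.5% and 30.8% of these 13, against 28.9% and 26.0% of all tested genes, so the share lay near the background. The strongest change of the set was in Polr2a (ENSMUSG00000005198, chromosome 11, 69733997 to 69758637, minus strand), which encodes RPB1, the subunit that carries the CTD and, with RPB2, forms the catalytic centre. Its level was 80.1, 78.5 and 78.2 CPM in the DMSO libraries, 199, 178 and 198 after JQ1 and 173, 185 and 189.7 after RG6146. The groups stood far apart, with the lowest drug-treated library above every DMSO library. Polr2a rose 2.43-fold after JQ1 (log2 1.28 ± 0.079, SE, adjusted p = 2.68e-09) and 2.31-fold after RG6146 (log2 1.21 ± 0.079, adjusted p = 6.36e-09).

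Polr2b encodes RPB2, the partner of RPB1 in the catalytic centre, and changed less. It was at 105, 97.5 and 109 CPM in DMSO, at 148, 132 and 129 after JQ1 and at 149, 129 and 146 after RG6146. All 6 drug-treated libraries lay above the 3 controls, and the log2 fold changes were 0.39 ± 0.087 (adjusted p = 0.00247) and 0.44 ± 0.087 (adjusted p = 9.44e-04). Igfbp7 lies on the opposite strand at the 3′ end of Polr2b, with log2 fold changes of 0.45 (adjusted p = 0.119) and 0.62 (adjusted p = 0.0355). The strand setting of the counting is not given in the sources used here, so reads of such partners may not be separated. Of the 44 genes, 9 have a gene on the opposite strand at the last 500 bases of their 3′ end, among them Supt5, Nelfa and Ccnh.

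Polr2m fell by the largest amount. It encodes GDOWN1, a protein that binds the polymerase and competes with the initiation factor TFIIF. Its level was 108, 90.7 and 112 CPM in DMSO, 52.8, 58.8 and 53.6 after JQ1 and 66.6, 57.7 and 52.0 after RG6146, with every treated library below every control. The log2 fold change was −0.91 ± 0.11 after JQ1 (1.88-fold lower, adjusted p = 6.19e-06) and −0.82 ± 0.11 after RG6146 (1.76-fold lower, adjusted p = 2.26e-05).

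Polr2l encodes RPB10, a small subunit shared by polymerases I, II and III. It was at 262, 274 and 255 CPM in DMSO, 380.3, 311 and 386 after JQ1 and 324, 319 and 367 after RG6146, without overlap between control and treated libraries. The rise was 0.45 ± 0.087 (adjusted p = 8.33e-04) and 0.35 ± 0.087 (adjusted p = 0.00578) on the log2 scale. The other shared subunits, Polr2e, Polr2f, Polr2h and Polr2k, were not called in either comparison, with log2 fold changes between 0.00046 and 0.25 after JQ1 and between −0.098 and 0.24 after RG6146.

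Polr2i encodes RPB9, a subunit that takes part in transcript cleavage and fidelity. Its level was 23.1, 24.2 and 19.4 CPM in DMSO, 14.9, 14.8 and 10.2 after JQ1 and 17.3, 16.2 and 19.1 after RG6146, so that the 3 groups did not overlap. It fell after JQ1 (log2 −0.73 ± 0.17, adjusted p = 0.00285), and after RG6146 its log2 fold change of −0.34 ± 0.16 missed the threshold (adjusted p = 0.138).

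Of the remaining subunits, none passed the test. Polr2f came nearest in both comparisons, with log2 fold changes of 0.25 after JQ1 (adjusted p = 0.0543) and 0.24 after RG6146 (adjusted p = 0.0725). For Polr2j the values were 0.23 after JQ1 (adjusted p = 0.0827) and 0.23 after RG6146 (adjusted p = 0.0898). Polr2e, which encodes RPB5, had a log2 fold change of 0.22 after JQ1 (adjusted p = 0.0753) and of −0.0034 after RG6146. The subunits of the stalk, Polr2d (RPB4) and Polr2g (RPB7), were less precisely measured, with 95% intervals of −0.14 to 0.57 and −0.062 to 0.73 after JQ1. For Polr2c, which encodes the assembly subunit RPB3, the intervals were −0.16 to 0.21 after JQ1 and −0.31 to 0.058 after RG6146.

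**Figure D2:**
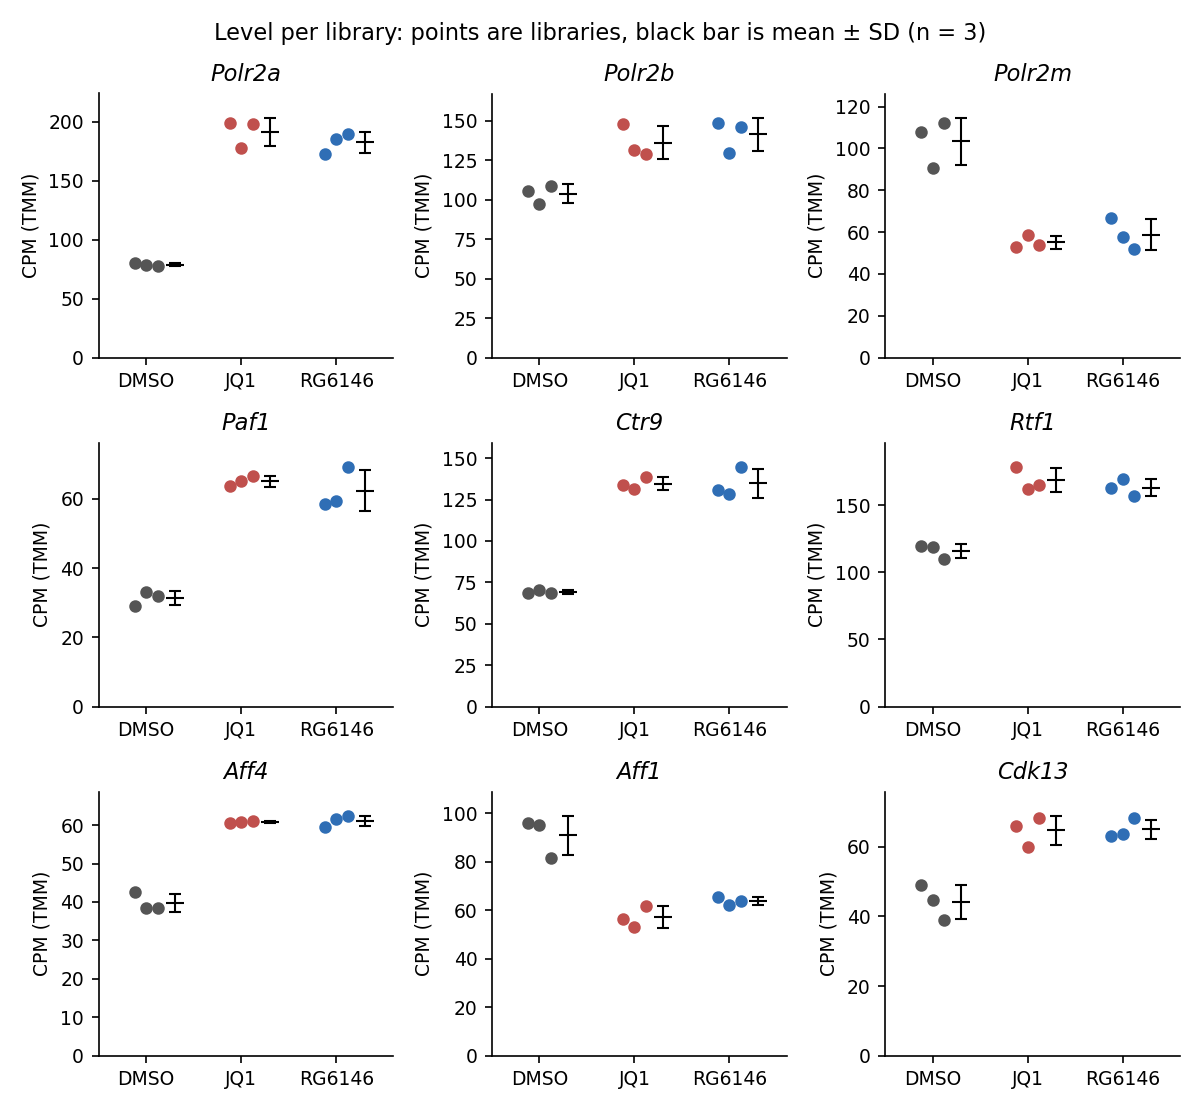
Level (CPM with TMM scaling, vertical axis from 0) of selected genes in each of the 9 libraries by treatment; coloured points are libraries and black bars are the mean ± SD of 3. For Polr2a the DMSO libraries lie at 78.2 to 80.1 CPM and the treated libraries at 173 to 199, whereas for Polr2m the controls lie above all treated libraries.

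The pausing factors DSIF and NELF gave opposite calls. DSIF is the heterodimer of SPT4 and SPT5 and acts on both pausing and elongation. Of its 2 genes 1 was called after each compound (50%, against 28.9% and 26.0% of all tested genes). Supt5, which encodes the large subunit, was at 62.8, 77.6 and 63.1 CPM in DMSO, 96.2, 88.1 and 94.1 after JQ1 and 89.8, 82.2 and 87.2 after RG6146. All treated libraries lay above the controls, and it rose by 0.45 ± 0.10 (adjusted p = 0.00163) and 0.35 ± 0.10 (adjusted p = 0.0109) on the log2 scale. The call after RG6146 was lost without the third DMSO library, where the log2 value was 0.30 (adjusted p = 0.0535). It was also lost with total counts and with ERCC scaling, and the call after JQ1 was lost with ERCC scaling. Supt4a, which encodes the small subunit, was not called, at log2 0.20 ± 0.085 after JQ1 (adjusted p = 0.0829) and 0.013 ± 0.085 after RG6146.

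In NELF, the complex that holds the paused polymerase, 1 of 4 genes was called after each compound. That is 25%, against 28.9% and 26.0% of all tested genes. Nelfa was at 133, 134 and 145 CPM in DMSO, 124, 104 and 99.6 after JQ1 and 114, 90.1 and 122 after RG6146. It fell in both comparisons (log2 −0.33 ± 0.11, adjusted p = 0.0313, and −0.34 ± 0.11, adjusted p = 0.0313), with no overlap with the controls. These calls rest on few libraries: both were lost without any 1 DMSO library, that after JQ1 also without the second or the third JQ1 library (log2 −0.35 to −0.26), and that after RG6146 without the first or the second RG6146 library (log2 −0.37 to −0.21). Both calls of Nelfa were also lost with ERCC scaling. Nsd2, on the opposite strand at the 3′ end of Nelfa, also fell (log2 −0.48, adjusted p = 1.35e-04, and −0.42, adjusted p = 5.69e-04). Nelfcd, another subunit, had log2 fold changes of −0.27 ± 0.11 (adjusted p = 0.0608) and −0.22 ± 0.11 (adjusted p = 0.132). Nelfb and Nelfe were not called, with log2 fold changes between −0.0039 and 0.15 over both comparisons.

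The histone chaperones, which take nucleosomes apart ahead of the polymerase and rebuild them behind it, changed by small amounts. None of the 3 genes was called after JQ1, where 28.9% of all tested genes were. After RG6146 1 rose and 1 fell (66.7%, against 26.0% of all tested genes). Ssrp1, a subunit of FACT, was at 413, 439 and 423 CPM in DMSO, 403, 361 and 394 after JQ1 and 341, 321 and 378 after RG6146. Its treated libraries all lay below the controls, and the log2 fold change was −0.14 ± 0.076 after JQ1 (adjusted p = 0.194) and −0.29 ± 0.076 after RG6146 (adjusted p = 0.00828, not called without the second RG6146 library: log2 −0.24). The RG6146 call was also lost under both kinds of ERCC scaling. Supt16, the other subunit of FACT, also had all treated libraries below the controls, with log2 values of −0.15 ± 0.072 and −0.13 ± 0.072, neither called. Supt6, which encodes SPT6, was at 72.0, 78.5 and 77.7 CPM in DMSO, 86.1, 81.2 and 95.2 after JQ1 and 95.1, 93.6 and 88.4 after RG6146. It rose after RG6146 (log2 0.28 ± 0.088, adjusted p = 0.0240) and had a log2 fold change of 0.20 ± 0.088 after JQ1 (adjusted p = 0.0953). The RG6146 call of Supt6 was lost without the first DMSO library or the first or second RG6146 library (log2 0.24 to 0.27) and by DESeq2. It was also lost with total counts, with no filter on low counts and under both kinds of ERCC scaling.

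The PAF1 complex, a platform that binds the elongating polymerase and directs histone modification along genes, had 3 of its 6 genes higher after JQ1 (50%, against 13.6% of all tested genes) and 4 after RG6146 (66.7%, against 12.5%), and none was called lower. The fourth gene after RG6146, Cdc73, passed in 7 of the 18 alternative settings. Paf1 (ENSMUSG00000003437, chromosome 7, 28392951 to 28399388, plus strand) was at 29.0, 33.0 and 31.9 CPM in DMSO, 63.6, 65.0 and 66.7 after JQ1 and 58.6, 59.2 and 69.3 after RG6146. It rose 2.08-fold (log2 1.06 ± 0.10, adjusted p = 6.74e-07) and 2.00-fold (log2 1.00 ± 0.10, adjusted p = 1.49e-06). Ctr9, which encodes the scaffold of the complex, was at 68.8, 70.5 and 68.3 CPM, 134, 131 and 139 after JQ1 and 131, 129 and 145 after RG6146. Its rise was 1.94-fold and 1.95-fold (log2 0.96 ± 0.080 and 0.96 ± 0.080, adjusted p = 1.04e-07 and 1.24e-07). For both genes the control and treated libraries were separated by a wide gap.

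Rtf1, a more loosely attached member that promotes histone ubiquitination, rose less. It was at 119.6, 119 and 110.0 CPM in DMSO, 179, 162 and 165 after JQ1 and 163, 169.5 and 157 after RG6146, for log2 fold changes of 0.54 ± 0.078 (adjusted p = 5.02e-05) and 0.49 ± 0.078 (adjusted p = 1.45e-04). Cdc73, which encodes the tumour suppressor parafibromin, was at 62.6, 58.9 and 59.2 CPM in DMSO, 58.3, 58.8 and 68.5 after JQ1 and 71.1, 75.7 and 72.0 after RG6146. The RG6146 libraries lay above both other groups, and the gene rose after RG6146 (log2 0.28 ± 0.093, adjusted p = 0.0364) with a value of 0.037 ± 0.094 after JQ1. The RG6146 call was weak: it was lost under 11 of the 18 settings, among them leaving out the second or the third DMSO library or any 1 RG6146 library (log2 0.25 to 0.30). Leo1 and Wdr61 were not called, with intervals of −0.29 to 0.18 and −0.015 to 0.32 after JQ1 and of −0.41 to 0.065 and −0.089 to 0.24 after RG6146.

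In the super elongation complex, the 2 scaffold genes listed moved in opposite directions. Aff3, a further gene of the AFF family counted below among other elongation factors, averaged 76.9 CPM in DMSO, 79.5 after JQ1 and 83.7 after RG6146. AFF1 and AFF4 are alternative scaffolds that hold P-TEFb, the ELL elongation factors and the chromatin readers ENL and AF9. Aff4 was at 42.5, 38.4 and 38.4 CPM in DMSO, 60.6, 60.7 and 61.2 after JQ1 and 59.5, 61.5 and 62.2 after RG6146, and rose by 0.61 ± 0.093 (adjusted p = 8.54e-05) and 0.62 ± 0.093 (adjusted p = 8.84e-05) on the log2 scale. Aff1 was at 96.1, 95.2 and 81.5 CPM, 56.4, 53.3 and 62.0 after JQ1 and 65.7, 62.0 and 63.8 after RG6146, with log2 fold changes of −0.67 ± 0.10 (adjusted p = 4.55e-05) and −0.51 ± 0.10 (adjusted p = 6.28e-04). Neither gene had a treated library within the range of the controls. With ERCC scaling the fold changes stayed close, at 0.61 ± 0.24 and 0.66 ± 0.24 for Aff4 and −0.66 ± 0.24 and −0.47 ± 0.24 for Aff1, but neither gene was called (adjusted p = 0.0920 and 0.0647 for Aff4 and 0.0528 and 0.244 for Aff1). With the replicate block added to that scaling, both were called after both compounds, at adjusted p = 5.27e-04 and 2.60e-04 for Aff4 and 3.01e-04 and 0.00614 for Aff1.

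None of the other 5 measured genes of the complex passed the test. Called genes were 28.6% of the complex after each compound, against 28.9% and 26.0% of all tested genes, so the share lay near the background. Mllt1, which encodes ENL, had few reads, with 7.52, 11.4 and 8.63 CPM in DMSO, 6.31, 6.90 and 6.54 after JQ1 and 7.07, 4.81 and 6.36 after RG6146. Every treated library lay below the controls, but the log2 fold changes of −0.46 ± 0.23 and −0.57 ± 0.23 missed the threshold (adjusted p = 0.147 and 0.0822). Ell had values of 0.36 ± 0.15 (adjusted p = 0.0800) and 0.21 ± 0.15. Ell2, another ELL factor, was at 6.40 ± 0.968 CPM in DMSO (mean ± SD, n = 3 libraries), and its intervals of −0.13 to 1.04 and −0.20 to 0.98 leave its change unresolved at this depth. Mllt3, which encodes AF9, and Eaf1, an ELL partner, had log2 fold changes of −0.036 and −0.012 after JQ1 and of −0.16 and 0.34 after RG6146.

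The transcript cleavage factor Tcea1 (TFIIS) and the elongation factor Elof1 were not called in either comparison. Their control and treated libraries overlapped in every case, and the intervals were narrow, from −0.25 to 0.19 after JQ1 and from −0.21 to 0.28 after RG6146.

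Among the kinases of the CTD that act during elongation, Cdk13 rose and Cdk12 was not called. CDK12 and CDK13 are related kinases that share cyclin K as their partner. Of these 3 genes 2 were called after JQ1 (66.7%, against 28.9% of all tested genes) and 1 after RG6146 (33.3%, against 26.0%). Cdk13 was at 48.9, 44.6 and 39.1 CPM in DMSO, 65.9, 60.0 and 68.2 after JQ1 and 63.2, 63.8 and 68.2 after RG6146. Its log2 fold changes were 0.55 ± 0.10 (adjusted p = 6.19e-04) and 0.56 ± 0.10 (adjusted p = 6.08e-04), and no treated library reached down to the controls. For Cdk12 the values were 0.092 ± 0.088 after JQ1 and 0.23 ± 0.088 after RG6146 (adjusted p = 0.0697). Ccnk, which encodes cyclin K, was at 50.8, 47.5 and 55.4 CPM in DMSO, 59.8, 69.0 and 62.7 after JQ1 and 57.7, 55.2 and 53.4 after RG6146. It rose after JQ1 (log2 0.32 ± 0.10, adjusted p = 0.0214) and had a log2 value of 0.11 ± 0.10 after RG6146. The call after JQ1 was lost by DESeq2 and without the first or second DMSO library or the second JQ1 library (log2 0.26 to 0.31). It was also lost with total counts and under both kinds of ERCC scaling.

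The CDK-activating kinase, the module of TFIIH that phosphorylates the CTD at initiation, had 1 gene lower after JQ1 and none called after RG6146. The call after JQ1 makes up 33.3% of its 3 genes, against 28.9% of all tested genes called. Ccnh, which encodes cyclin H, was at 28.6, 28.7 and 31.6 CPM in DMSO, 22.3, 22.8 and 21.2 after JQ1 and 24.4, 29.6 and 27.0 after RG6146. The JQ1 libraries lay below both other groups, with a log2 fold change of −0.42 ± 0.12 (adjusted p = 0.0144), against −0.14 ± 0.12 after RG6146. This call was lost by DESeq2 and without the third DMSO or the third JQ1 library (log2 −0.37 and −0.39). It was also lost with ERCC scaling. Cdk7, the kinase, had log2 fold changes of −0.36 ± 0.15 (adjusted p = 0.0697) and −0.18 ± 0.14, and Mnat1, the assembly factor of the module, of −0.23 ± 0.11 and −0.094 ± 0.11.

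Ratios of read counts of a pair of genes within a library do not depend on how libraries are scaled, and they show the uneven change directly. The pairs were chosen after the values were seen and are a description with no test. Each ratio also depends on how well the reads of each gene are captured, so only its shift between groups can be read. Polr2a to Polr2b was 0.761, 0.805 and 0.718 in DMSO, 1.35, 1.35 and 1.54 after JQ1 and 1.16, 1.43 and 1.30 after RG6146. Polr2a to Polr2m was 0.743, 0.865 and 0.698 in DMSO, 3.77, 3.02 and 3.69 after JQ1 and 2.59, 3.21 and 3.65 after RG6146. Both ratios of the largest subunit were higher in every treated library than in any control.

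Within the PAF1 complex, Paf1 to Leo1 was 0.890, 1.13 and 1.09 in DMSO, 2.14, 2.33 and 2.18 after JQ1 and 2.09, 2.21 and 2.65 after RG6146. The ratio of Ctr9 to Cdc73 was 1.10, 1.20 and 1.15 in DMSO, 2.29, 2.23 and 2.03 after JQ1 and 1.84, 1.70 and 2.01 after RG6146. Both ratios lay higher in all treated libraries. The scaffold pair Aff4 to Aff1 was 0.442, 0.403 and 0.471 in DMSO, 1.07, 1.14 and 0.987 after JQ1 and 0.906, 0.992 and 0.975 after RG6146. For the kinases, Cdk13 to Cdk12 was 0.477, 0.455 and 0.470 in DMSO, 0.652, 0.613 and 0.657 after JQ1 and 0.551, 0.575 and 0.641 after RG6146. For the pausing factors, Supt5 to Nelfa was 0.472, 0.580 and 0.435 in DMSO, 0.777, 0.847 and 0.945 after JQ1 and 0.785, 0.913 and 0.716 after RG6146. In each of these 7 pairs the treated libraries did not overlap with the controls, which their choice from the same values made likely.

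**Figure D3:**
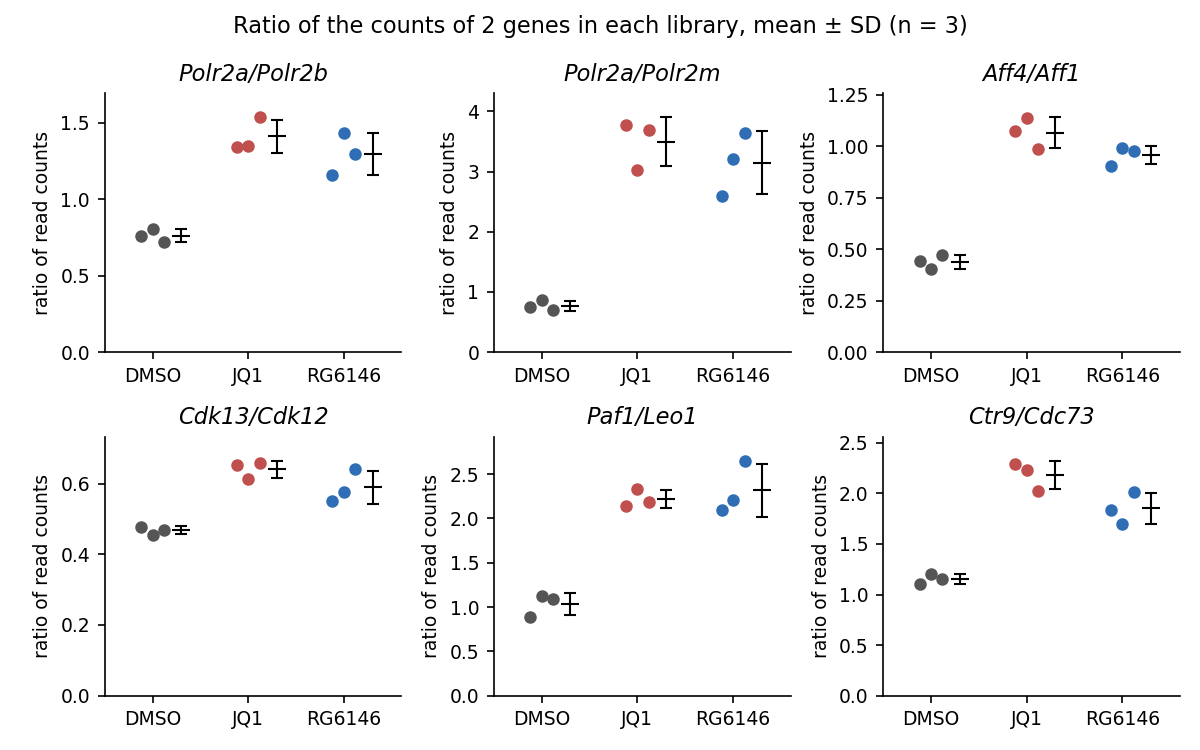
Ratio of the read counts of a pair of genes (vertical axis, no unit, from 0) in each of the 9 libraries by treatment; points are libraries and black bars the mean ± SD of 3. Polr2a to Polr2m lies at 0.698 to 0.865 in DMSO and at 2.59 to 3.77 after either compound, and Aff4 to Aff1 at 0.403 to 0.471 and 0.906 to 1.14.

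Compared directly, RG6146 at 2.5 µM and JQ1 at 1 µM gave no called difference in any of the 43 genes. Over all 11002 genes 1 was called (0.00909%), the gene model Gm12693, higher after RG6146 (log2 1.52, adjusted p = 0.0321). An unadjusted p below 0.05 was found for 6 of the 43 genes and for 427 of all 11002. Every adjusted p of the set was at least 0.9989, so none of its genes is shown to differ. By DESeq2 too, no gene of the set and 1 of all genes was called. The libraries of the compounds did not overlap for 7 genes (16.3%, against 9.93% of all genes).

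The 6 genes were Polr2i (RG6146 minus JQ1, log2 0.39 ± 0.17, 95% interval 0.036 to 0.75), Cdc73 (0.24 ± 0.093, 0.042 to 0.43), Ccnh (0.29 ± 0.12, 0.029 to 0.54), Eaf1 (0.35 ± 0.16, 0.0068 to 0.69), Polr2e (−0.22 ± 0.089, −0.41 to −0.034) and Supt4a (−0.19 ± 0.085, −0.37 to −0.012). Polr2i, Ccnk and Ccnh were called after JQ1 alone, and Ssrp1, Supt6 and Cdc73 after RG6146 alone. Since the direct test called none of them, these 6 are not shown to differ between the compounds. For 38 of the 43 genes the 95% interval lay within a 1.5-fold difference either way, and for all 43 within a 2-fold difference. The lowest bound was −0.64 and the highest 0.75 on the log2 scale. For Polr2a the interval was −0.23 to 0.092, for Paf1 −0.27 to 0.15, for Ctr9 −0.16 to 0.17, for Aff4 −0.19 to 0.20, for Aff1 −0.044 to 0.36 and for Polr2m −0.13 to 0.32.

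**Figure D4:**
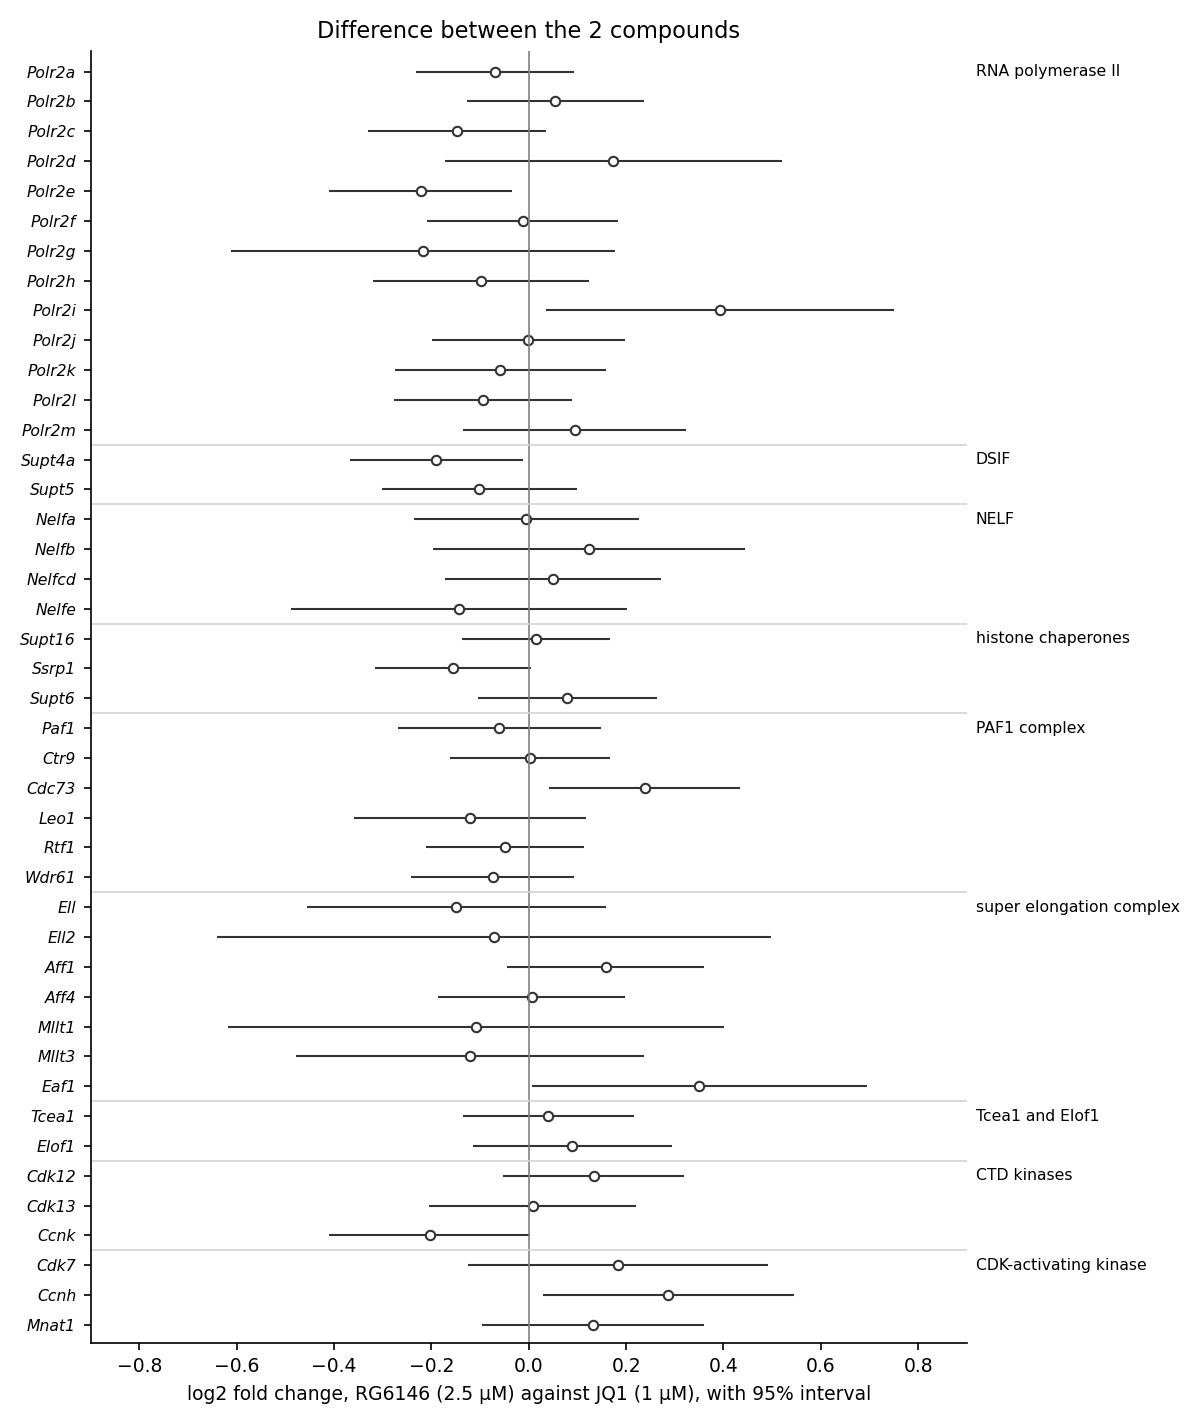
Log2 difference of RG6146 (2.5 µM) against JQ1 (1 µM) for each of the 43 tested genes (horizontal axis), with 95% intervals as bars. The estimates run from −0.22 (Polr2e) to 0.39 (Polr2i), and none was called at an adjusted p below 0.05.

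Genes of neighbouring steps were counted from 6 further lists with 90 tested genes. Of these, 27 (30%) were called after JQ1, 17 higher and 10 lower, and 31 (34.4%) after RG6146, 22 higher and 9 lower. Over all tested genes the shares called were 28.9% and 26.0%, with 13.6% and 12.5% higher, so the share after JQ1 lay near the background. P-TEFb, the kinase complex of CDK9 and cyclin T, and the proteins that hold it inactive had 3 of 6 tested genes higher and none lower after each compound. They were Hexim1, an inhibitor of P-TEFb, at log2 1.55 ± 0.070 and 1.46 ± 0.069, Mepce, which caps the inhibitory 7SK RNA, at 0.98 ± 0.12 and 0.97 ± 0.12, and Ccnt1, which encodes cyclin T1, at 0.52 ± 0.076 and 0.58 ± 0.076. Hexim1 stood at 138, 129 and 139.8 CPM in DMSO, 394, 392 and 400.0 after JQ1 and 376, 377 and 363 after RG6146, with no overlap between controls and treated libraries. The kinase gene Cdk9 itself was not called (log2 0.31 ± 0.18 and 0.20 ± 0.18), nor were Ccnt2 and Larp7. With total counts 1 gene of the list was also lower after each compound, as was 1 after RG6146 without the third DMSO library.

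Of 28 genes of general transcription factors, 5 were higher and 2 lower after JQ1, and 9 were higher and 1 lower after RG6146. The 7 called after JQ1 are 25% of the list, below the 28.9% of all tested genes. After RG6146 35.7% of the list was called, against 26.0% of all tested genes. The count after RG6146 was unsteady: it became 4 higher and 2 lower with total counts, 4 and 1 by DESeq2 or without the second DMSO library, 5 and 2 without the first RG6146 library, and 5 and 1 without the second. Gtf2b, which encodes the initiation factor TFIIB, rose by 0.85 ± 0.14 and 0.98 ± 0.14 on the log2 scale, Taf13, a subunit of TFIID, by 0.90 ± 0.15 and 1.02 ± 0.15, and Gtf2f1, a subunit of TFIIF, by 0.58 ± 0.10 and 0.61 ± 0.10. Gtf2h2, a core subunit of TFIIH, had log2 fold changes of −0.89 ± 0.12 and −0.77 ± 0.12 and was lower after both compounds.

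Among 13 tested genes of other elongation factors, 2 were higher and 3 lower after each compound. The called genes were 38.5% of the list, against 28.9% and 26.0% of all tested genes. Spty2d1, a histone chaperone gene, rose by 0.78 ± 0.11 and 0.76 ± 0.11, and Eloa, which encodes elongin A, by 0.68 ± 0.10 and 0.59 ± 0.10. Iws1, a partner of SPT6, fell in both (log2 −0.52 ± 0.088 and −0.38 ± 0.088), as did Mllt10 (−0.32 ± 0.089 and −0.41 ± 0.089). The fall of Mllt10 after JQ1 lost its call without the first JQ1 library (log2 −0.29). Of 14 genes for CTD phosphatases and termination factors, 4 were higher and 2 lower after each compound. These called genes were 42.9% of the list, against 28.9% and 26.0% of all tested genes. After JQ1 the counts became 2 higher and 2 lower with total counts or by DESeq2, and 0 and 2 with ERCC scaling. Pcf11, a termination factor, rose by 0.65 ± 0.10 and 0.71 ± 0.10, and Scaf4 by 0.66 ± 0.11 and 0.65 ± 0.11. The CTD-binding genes Rprd1b (−0.71 ± 0.11 and −0.55 ± 0.11) and Rprd2 (−0.70 ± 0.10 and −0.68 ± 0.10) were lower after both.

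Subunits found only in polymerases I and III gave 2 higher and 2 lower of 19 after JQ1, and 3 and 3 after RG6146. Called genes were 21.1% and 31.6% of the list, against 28.9% and 26.0% of all tested genes. Polr1b, the second largest subunit of polymerase I, had log2 fold changes of −0.65 ± 0.10 and −0.47 ± 0.10, and Polr3d, a subunit of polymerase III, of −0.67 ± 0.11 and −0.69 ± 0.11, both lower. Polr1d, shared by the pair of enzymes, rose by 0.30 ± 0.082 and 0.32 ± 0.082. The rise of Polr1d was not called with total counts. Polr1c passed after JQ1 (0.35 ± 0.12) and Polr3gl after RG6146 (0.63 ± 0.18), both weakly. The Polr1c call held in 8 of the 18 alternative settings, its JQ1 and DMSO libraries overlapped, and it was lost by DESeq2 and without DMSO replicate 1 or 2, JQ1 replicate 1 or 3 or RG6146 replicate 1 (log2 0.23 to 0.36). The Polr3gl call was lost without the third DMSO library (0.42) or the first RG6146 library (0.59), and without the latter the list had 1 gene higher after RG6146. With total counts this list turned to 0 higher and 4 lower after JQ1 and to 1 and 4 after RG6146. Of 10 genes for polymerase assembly and import, Slc7a6os, the mouse counterpart of the yeast import factor Iwr1, rose by 0.52 ± 0.11 and 0.72 ± 0.11, and Ruvbl1 passed as lower after JQ1 (−0.28 ± 0.087; after RG6146 it was at −0.21 ± 0.087). Called genes were 20% of the assembly and import list after JQ1 and 10% after RG6146, below the 28.9% and 26.0% of all tested genes. The Ruvbl1 call held in 11 of the 18 settings: it was lost by DESeq2, under both kinds of ERCC scaling, and without replicate 2 or 3 of DMSO or of JQ1 (log2 −0.28 to −0.21). In the direct comparison of the compounds, none of the 90 tested genes of these lists was called. With ERCC scaling these lists held 9 calls after JQ1 and 10 after RG6146, and with the replicate block added 26 and 30. Under each of the 18 settings, Hexim1, Mepce, Gtf2b, Taf13, Gtf2h2 and Spty2d1 kept their calls after both compounds.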

How the data were processed

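The deposited table holds raw counts of 3′ mRNA reads per gene in 9 libraries, unscaled, with 92 ERCC spike-in rows; 42548 of its 43629 Ensembl identifiers had a symbol in GENCODE M21. The submitters' processing notes list build mm10 and, with no roles, the tools HISAT2 2.1.0, cutadapt 1.7, Subread with featureCounts, limma, FastQC 0.11.5 and bcl2fastq 2.17.1.14. Which annotation was counted, whether strand was used and how multi-mapping reads were handled is not given in the sources used here.

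ERCC rows were left out of library sizes and tests. Genes were kept with edgeR's filterByExpr (minimum count 10), scaled by TMM and tested in 1 fit over all 9 libraries with the group as the only term (edgeR 4.0.16, quasi-likelihood F-test, robust, R 4.3.3). P-values were adjusted by Benjamini-Hochberg over all 11002 genes, and a gene is called below 0.05. Log2 fold changes are unshrunk, with their standard errors and 95% intervals. Levels are CPM with TMM scaling, and a 3′ read count needs no division by gene length.

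The scripts were tested on simulated data. Each library was counted as its own replicate, as numbered in the labels. Libraries of a group differed by a chi-square of 6.88 to 17.1 per degree of freedom, more than sampling noise. This value cannot tell separate cultures from separate library preparations of 1 culture. Replicate numbers were not taken as pairs, since the labels state no shared source and same-numbered libraries did not all deviate together, although the ERCC share differed by number. DESeq2 1.42.0, other scalings and filters, a replicate block and leaving out each library were the alternatives. The genes and lists were chosen with earlier results of these data known. Genes called after either compound are given in every library, others by range or near the threshold, and up to 4 called genes per further list by smallest p. Promoter windows are from RefSeq, and 9 genes matched none. A gene of 1 further list and 1 cell type marker are not reported here.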

Additional observations from a re-analysis of the deposited data

How the results depend on the processing

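With ERCC scaling, 1196 genes and 5 of the set (3 higher, 2 lower) were called after JQ1, and 1082 genes and 4 of the set (3 higher, 1 lower) after RG6146, against 3184, 15, 2863 and 15. The ERCC share of reads ran by replicate number, at 1.35 to 1.51%, 1.17 to 1.22% and 0.958 to 1.13%. ERCC scaling with the replicate block called 14 and 12 of the set. DESeq2 called 2147 genes after JQ1 and 1902 after RG6146, and 13 of the set in each. Between the compounds, where 1 gene was called, ERCC scaling called 4, no filter 17, the replicate block 0, the fit on only the 2 groups 0, and leaving out 1 library 0 to 2; none was in the set. Leaving out 1 library gave 13 to 16 calls in the set after JQ1 and 11 to 15 after RG6146. Same-numbered libraries correlated at −0.063 to 0.10 in their deviations from the group means, and 6 of 9 correlated best with their own number, a hint from the data alone. The replicate block gave 3092 and 2789 genes, with 16 and 14 of the set. The cause of these shifts was not tested. Of the set's calls, 5 of 15 after JQ1 and 4 of 15 after RG6146 remained under all 18 settings, and 7 and 6 were lost under ERCC scaling alone. At this depth Ell2 and Mllt1 had the widest 95% intervals of the set.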

Other observations

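Supt5 and Paf1, which both rose after JQ1 and after RG6146, lie 54.2 kb apart on chromosome 7 (GRCm38). Of the 6 genes between them 4 were tested. Rps16, a ribosomal protein gene, was called higher after JQ1 (log2 0.22 ± 0.067, adjusted p = 0.0203) and not after RG6146 (0.11 ± 0.067, adjusted p = 0.246). Zfp36, which encodes an mRNA decay factor, had values of 0.42 ± 0.22 (adjusted p = 0.177) and 0.50 ± 0.22 (adjusted p = 0.113). Plekhg2 and Med29, a Mediator subunit gene, were not called, at 0.24 and −0.26 after JQ1 and 0.29 and 0.036 after RG6146. These neighbours were looked up after the values of Supt5 and Paf1 were seen.

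Supt4a, on chromosome 11, lies 16.9 kb from Tspoap1, whose log2 fold change was 4.71 ± 0.12 (SE) after JQ1 (adjusted p = 1.46e-14) and 4.69 ± 0.12 after RG6146 (adjusted p = 1.55e-14). Supt4a itself was not called in either comparison.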
